A study of Mus musculus with 100 samples.

Results

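The genes described here are the inhibitors, the p53 pair and the G1 cyclins that set entry into the cell cycle: Cdkn1a, Cdkn2a and Cdkn2b, Trp53 and Mdm2, the D cyclins Ccnd1, Ccnd2 and Ccnd3, and the E cyclins Ccne1 and Ccne2. They were chosen by name and are 10 of the 25965 genes of the RNA-seq table. All 10 were present once and all 10 passed the filter on low values (log2 RPM above 0 in at least 3 libraries).

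The RNA-seq covered 18 libraries in 6 groups of 3 biological replicates. Female MEFs (mouse embryonic fibroblasts) came from a single mid-gestation F1 hybrid embryo of an i4F-BL6 mother (C57BL/6J, carrying a doxycycline-inducible cassette of Oct4, Sox2, Klf4 and c-Myc with the transactivator in Rosa26) and a CAST/EiJ father, and were grown in serum-containing medium, before reprogramming. F KSR2 and F KSR4 are female, and M KSR3 and M KSR5 male, induced pluripotent stem cell lines. Each was a single clone reprogrammed with doxycycline in Knockout Serum Replacement medium with LIF and then kept on feeder cells without doxycycline, so that all KSR-iPSCs and the MEFs carry the cassette. The male lines came from male MEFs of a single other embryo of the same progeny, so sex cannot be told apart from embryo of origin. No RNA-seq of male MEFs was analysed here. TX 2i ESCs are the female embryonic stem cell line TX1072, from a BL6 mother and a CAST father. They were grown in serum-containing medium with LIF and with inhibitors of MEK and GSK3 (2i). Line, medium (serum as well as inhibitors) and origin differ together between TX 2i ESCs and the KSR-iPSCs, whose medium was serum-free.

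Cells enter S phase when cyclin D bound to CDK4 or CDK6, and then cyclin E bound to CDK2, phosphorylate the retinoblastoma protein and release E2F factors. The INK4 proteins (p16 and p15, from Cdkn2a and Cdkn2b) block CDK4 and CDK6, and p21, from Cdkn1a, blocks CDK2. p53, from Trp53, switches on Cdkn1a and Mdm2, MDM2 marks p53 for degradation, and ARF, the second product of Cdkn2a, holds MDM2 back. In cultured fibroblasts these inhibitors build up with passage and are the senescence barrier that reprogramming has to pass, whereas mouse pluripotent cells cycle fast with a short G1 phase.

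The libraries held 13183036 to 17921280 reads on genes, and values are log2 RPM (the log2 of reads scaled to a common library total, with no correction for gene length). Of 15 fibroblast markers, all were read in each MEF library; their summed level was 24292 to 37316 RPM in MEFs and 25.5 to 197.1 RPM in the pluripotent libraries, where the median marker stood at 0.0352 to 0.694% of its MEF level. The highest value was that of M KSR5 replicate 3. The 10 pluripotency markers summed to 1.4 to 2.29 RPM in MEFs, where Zfp42, Dppa5a, Tdgf1, Dppa4 and Pou5f1 had no read, and to 3974 to 8374 RPM in the pluripotent libraries. F KSR4 replicate 2 stood apart: its squared differences from the other F KSR4 libraries were 32.4 to 35.8 times the sampling noise at the median gene, against 1.35 to 12.6 times for pairs within the other groups, although the other 2 libraries of F KSR4 also differed by 24.3 times. Among the 10 genes, called differences that it moved by over 1.5 times, and the call it changed, are given with and without it. In bulk RNA, fewer cells with a transcript and less transcript per cell cannot be told apart.

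Against female MEFs, the 15 pluripotent libraries had lower Cdkn1a, Cdkn2a, Cdkn2b, Ccnd1 and Ccnd2 and higher Trp53, Ccnd3 and Ccne1, whereas Mdm2 and Ccne2 did not pass the test. That made 8 of the 10 genes called, 3 higher and 5 lower, at an adjusted p under 0.05 (limma with Benjamini-Hochberg adjustment over 14632 genes). Calls were common in this comparison, at 74.6% of all genes tested, 42.1% higher and 32.5% lower, so the number of calls among the 10 is close to what the whole table shows. The sizes differed widely, from 2.36-fold for Ccnd1 to 281.7-fold for Ccnd2 among the genes that fell. The median difference of the 10 genes was -0.63 on the log2 scale, beside 0.21 over all genes.

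**Figure D1:**
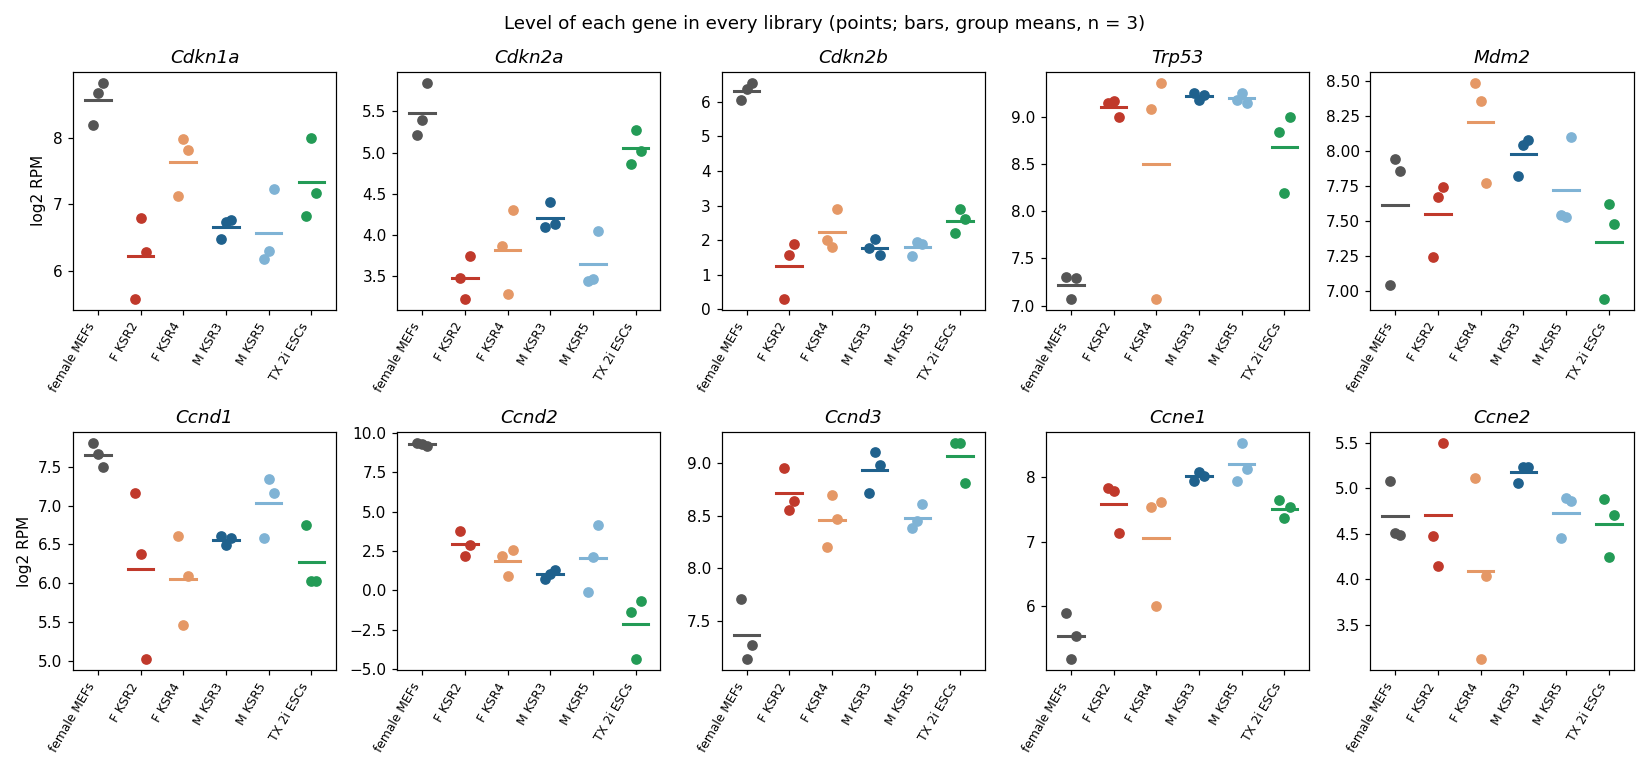
Level of each of the 10 genes in every library, in log2 RPM on an axis of its own for each gene; points are libraries and bars are group means (n = 3). Cdkn1a, Cdkn2b, Ccnd1, Ccnd2, Ccnd3 and Ccne1 show no overlap between the 3 MEF libraries and the 15 pluripotent libraries, and Trp53 overlaps through F KSR4 replicate 2 alone, at 7.07.

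Cdkn1a encodes p21, the main p53-induced inhibitor. In MEFs it stood at 8.19, 8.68 and 8.83 log2 RPM in replicates 1, 2 and 3. F KSR2 had 5.58, 6.80 and 6.28, F KSR4 had 7.13, 7.98 and 7.82, M KSR3 had 6.48, 6.74 and 6.77, M KSR5 had 6.18, 6.30 and 7.23, and TX 2i ESCs had 6.83, 8.00 and 7.17. All 15 pluripotent libraries lay below all MEF libraries, F KSR4 and TX 2i ESCs being nearest to them. Cdkn1a fell by 1.68 on the log2 scale (SE 0.27, adjusted p = 2.3e-05), with groups ranging from -0.93 in F KSR4 (adjusted p = 0.0263) to -2.35 in F KSR2 (adjusted p = 1.3e-05).

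The stretch upstream of the first annotated Cdkn1a start (17:29090979-29100722, plus strand, GRCm38) is shown because p53 is known to act on this promoter. The capitals mark matches to the p53 half-site, searched on both strands in the 250 bases before each RefSeq start (GRCm38.p6); overlapping matches were allowed. Bases inside an annotated exon are left out of every stretch printed here.
Cdkn1a, chr17:29090729-29090975, plus strand: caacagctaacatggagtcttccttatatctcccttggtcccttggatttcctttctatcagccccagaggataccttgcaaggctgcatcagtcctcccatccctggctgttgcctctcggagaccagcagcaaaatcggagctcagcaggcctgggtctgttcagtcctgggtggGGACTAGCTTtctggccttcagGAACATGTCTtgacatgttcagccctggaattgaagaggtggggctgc
A half-site match occurred in 7.13% of the 32851 windows of the table. The first Cdkn1a window had 2 matches, Mdm2 and Trp53 had 1 each, and the other windows of the 10 genes had none. Matches were counted over the full 250 bases. The Trp53 window and the second Cdkn1a window overlapped an annotated exon and had no base left to print. Of the 10 genes, 7 had an entry, and Ccnd1, Ccnd2 and Ccne2 did not.

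Cdkn2a and Cdkn2b lie side by side on chromosome 4 (4:89274473-89294653 and 4:89306289-89311032, minus strand, GRCm38). Cdkn2a has 2 starts, 12427 bases apart, the upstream one for ARF and the downstream one for p16; the table sums both into a single gene value, so the products cannot be told apart. Cdkn2a stood at 5.21, 5.40 and 5.85 log2 RPM in MEFs and at 3.22 to 4.40 across the 12 KSR-iPSC libraries, with no overlap. TX 2i ESCs, at 4.86, 5.28 and 5.02, reached into the MEF range. The fall over the pluripotent groups was 1.44 (SE 0.21, adjusted p = 7.4e-06); by group it was called in all 4 KSR lines, with differences of -1.27 to -2.0, but not in TX 2i ESCs (-0.43, SE 0.27, adjusted p = 0.171).

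Cdkn2b fell further. Its MEF values were 6.05, 6.36 and 6.55 log2 RPM (1085 to 1777 reads a library), and the pluripotent libraries had 0.30 to 2.90 (22 to 140 reads), F KSR2 replicate 1 being the lowest and TX 2i ESC replicate 2 the highest. The difference was -4.39 (SE 0.30, 21-fold, adjusted p = 6.5e-10), and all 5 groups were called, from -3.75 in TX 2i ESCs to -5.07 in F KSR2. Per kb of annotated exon, which allows levels of different genes to be compared, Cdkn2b was the more abundant of the pair in MEFs, at 58.0 ± 9.82 against 38.8 ± 9.13 RPM per kb for Cdkn2a (SD, n = 3). The order was the reverse in every pluripotent group, where Cdkn2a made up 75.8 to 91.5% of the pair in each library.

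The stretches upstream of the 3 starts of this locus are shown since both genes fell together. The capitals mark the E2F site (TTTGGCGC, TTTCGCGC, TTTCCCGC or TTTGCCGC, both strands).
Cdkn2a, upstream start, chr4:89294654-89294869, minus strand: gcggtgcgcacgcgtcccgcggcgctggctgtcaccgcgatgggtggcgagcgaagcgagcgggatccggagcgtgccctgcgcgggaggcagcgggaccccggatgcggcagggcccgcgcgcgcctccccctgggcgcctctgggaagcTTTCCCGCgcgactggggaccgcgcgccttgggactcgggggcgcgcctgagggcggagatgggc
Cdkn2a, downstream start, chr4:89282193-89282442, minus strand: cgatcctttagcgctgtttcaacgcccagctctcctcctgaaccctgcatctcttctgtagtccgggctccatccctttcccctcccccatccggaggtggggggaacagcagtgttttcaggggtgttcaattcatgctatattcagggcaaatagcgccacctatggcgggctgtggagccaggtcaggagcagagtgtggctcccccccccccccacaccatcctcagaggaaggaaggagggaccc
Cdkn2b, chr4:89311040-89311282, minus strand: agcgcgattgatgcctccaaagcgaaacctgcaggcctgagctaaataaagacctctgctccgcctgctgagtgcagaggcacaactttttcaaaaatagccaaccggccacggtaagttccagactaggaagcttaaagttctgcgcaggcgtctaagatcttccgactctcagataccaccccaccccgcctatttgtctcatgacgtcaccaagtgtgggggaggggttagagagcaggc
An E2F site was found in the upstream Cdkn2a window only, 99 to 92 bases before the start, and in 1.86% of all windows. Over the full 250 bases, GC content was 78.4% in that window, 60% in the downstream one and 53.6% in that of Cdkn2b. The windows of Cdkn1a, Trp53, Mdm2, Ccnd3 and Ccne1 held no match to these letters, which bears on this window alone.

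Trp53 moved the other way from its target Cdkn1a. MEFs had 7.30, 7.07 and 7.29 log2 RPM; F KSR2 had 9.14, 9.17 and 9.00, F KSR4 9.08, 7.07 and 9.36, M KSR3 9.25, 9.18 and 9.23, M KSR5 9.18, 9.25 and 9.15, and TX 2i ESCs 8.84, 8.19 and 9.00. In 14 of 15 pluripotent libraries the value lay above every MEF library, and F KSR4 replicate 2 was level with the lowest MEF library. The rise was 1.72 (SE 0.30, 3.29-fold, adjusted p = 5.6e-05), and each of the 5 groups was called, with differences of 1.29 in F KSR4 to 2.0 in M KSR3. Without replicate 2, the F KSR4 difference was 2.0 (SE 0.19, adjusted p = 1.2e-07), and TX 2i ESCs, at 1.46, were the group nearest to MEFs. M KSR3 held the tightest replicates (SD 0.04) and F KSR4 the widest (SD 1.25).

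Mdm2, the ligase that removes p53, did not follow. MEFs had 7.04, 7.94 and 7.86 log2 RPM, and the pluripotent libraries ran from 6.94 in TX 2i ESC replicate 1 to 8.49 in F KSR4 replicate 1. Those ranges overlap: 5 of 15 libraries were above all MEFs and 1 below. The difference was 0.14 (SE 0.20, adjusted p = 0.527), and no group passed on its own, F KSR4 coming nearest with 0.59 (SE 0.26, adjusted p = 0.0533). The Mdm2 window is shown beside that of Cdkn1a because both are p53 targets, with the half-site match in capitals. Such a match occurred in 7.13% of all windows, and whether p53 acts through this one was not tested.
Mdm2, chr10:117710759-117711008, minus strand: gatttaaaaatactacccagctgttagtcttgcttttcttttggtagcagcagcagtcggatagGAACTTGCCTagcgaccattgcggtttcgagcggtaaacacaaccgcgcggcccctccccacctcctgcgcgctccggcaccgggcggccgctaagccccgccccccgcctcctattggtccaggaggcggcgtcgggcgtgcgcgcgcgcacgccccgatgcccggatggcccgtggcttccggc

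In F KSR4 replicate 2, 7 of the 10 genes were below both other libraries of that line, and Cdkn1a and Ccnd3 were above both; over 11120 genes, 46.6% were below both and 26.3% above both. Trp53 differed from the mean of the other 2 libraries by -2.15 on the log2 scale, beside a median of -0.22 over 11120 genes. Both parental alleles of Trp53 were low there, with 88 maternal and 90 paternal reads, against 383 and 520 in replicate 1 and 641 and 756 in replicate 3. Ccne1 differed by -1.58 and Ccne2 by -1.46, and the 15 replication and proliferation genes had a median of -0.64, with 12 of 15 below both other libraries. Without this library the pluripotent libraries' Trp53 ran from 8.19 to 9.36, and the same number of genes, 8 of 10, was called against MEFs.

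Among the D cyclins, the partners of CDK4 and CDK6, Ccnd2 and Ccnd1 fell and Ccnd3 rose. Ccnd2 (6:127125779-127151048, minus strand) stood at 9.38, 9.33 and 9.16 log2 RPM in MEFs, from 10947, 12640 and 10877 reads. F KSR2 had 243, 85 and 119 reads, F KSR4 83, 34 and 86, M KSR3 28, 40 and 45, M KSR5 17, 77 and 306, and TX 2i ESCs 7, 0 and 10. Every pluripotent library was far below every MEF library, and the 3 TX 2i ESC libraries were the lowest of all. The fitted difference was -8.14 (SE 0.70, adjusted p = 1.1e-08); by group it ran from -6.35 in F KSR2 to -11.42 in TX 2i ESCs, the latter resting on 17 reads in 3 libraries and on a placeholder of 0.9 read in the library without any. From pooled reads, the MEF level was 1925 times that of TX 2i ESCs (95% exact Poisson interval 1202 to 3304, counting error only).

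The 2 pluripotent libraries highest in Ccnd2 were M KSR5 replicate 3, at 2.82% of the mean MEF level, and F KSR2 replicate 1, at 2.17%. Their median fibroblast marker stood at 0.694% and 0.108% of the MEF level, so the first was also the highest in fibroblast markers and the second was not. The part of fibroblast RNA in these values was not tested.

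Ccnd3 (17:47505051-47599683, plus strand) rose. MEFs had 7.71, 7.14 and 7.27 log2 RPM and all 15 pluripotent libraries lay above them, between 8.20 in F KSR4 replicate 1 and 9.19 in TX 2i ESC replicates 1 and 2. The difference was 1.36 (SE 0.14, 2.57-fold, adjusted p = 1.6e-07), and all 5 groups were called, with differences of 1.09 in F KSR4 to 1.70 in TX 2i ESCs.

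Ccnd1, the D cyclin most tied to growth factor signalling, fell. It is identified by its symbol and coordinates (7:144929931-144939869, minus strand), since the identifier in its row of the table belongs to a neighbouring gene. MEFs had 7.81, 7.67 and 7.50 log2 RPM. F KSR2 had 7.16, 6.38 and 5.02, F KSR4 6.61, 5.46 and 6.09, M KSR3 6.61, 6.49 and 6.58, M KSR5 6.59, 7.35 and 7.17, and TX 2i ESCs 6.75, 6.03 and 6.03. All 15 were below the MEFs, F KSR2 replicate 3 being the lowest and M KSR5 replicate 2 the nearest. The difference was -1.24 (SE 0.31, adjusted p = 0.00145); M KSR5 alone did not pass (-0.62, SE 0.40, adjusted p = 0.171).

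Per kb of exon, the 3 D cyclins together came to 188.8 to 234.6 RPM per kb in MEF libraries and 133.2 to 240.1 in pluripotent libraries. Their sums overlapped, while the shares of Ccnd2 and Ccnd3 did not. The share of Ccnd1 was 25.6 to 27.2% in MEF libraries, a range that the highest pluripotent library met at 25.6%. In MEFs, Ccnd2 gave 44.9% ± 2.64, Ccnd3 28.9% ± 3.44 and Ccnd1 26.2% ± 0.879 of that sum (SD, n = 3). In the pluripotent libraries, Ccnd3 gave 74 to 93.7%, Ccnd1 5.65 to 25.6% and Ccnd2 at most 1.44%. M KSR5 kept the largest mean share of Ccnd1 among the pluripotent groups, at 21.5% ± 4.0 (SD, n = 3).

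**Figure D2:**
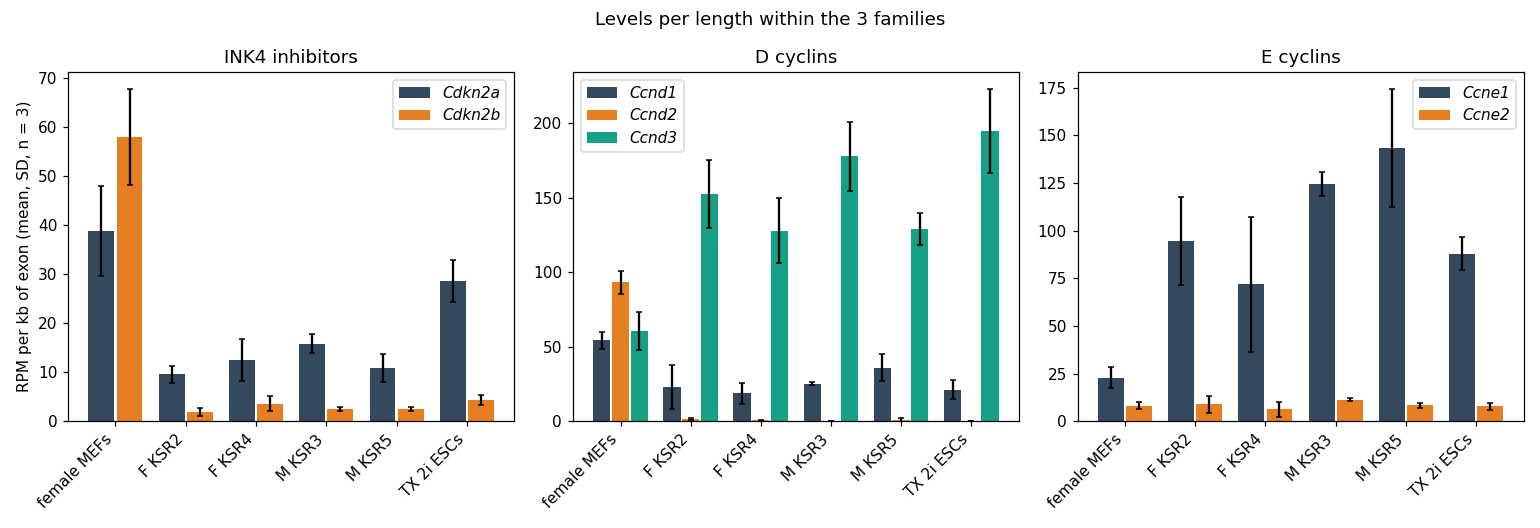
Mean level per length, in RPM per kb of exon from 0, of the INK4 inhibitors, the D cyclins and the E cyclins in the 6 groups; error bars are SD over 3 libraries. Ccnd2 is the tallest D cyclin bar in MEFs at 93.1 and is near 0 elsewhere, while Ccnd3 reaches 195 in TX 2i ESCs.

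Of the E cyclins, which bind CDK2 at the start of S phase, Ccne1 rose and Ccne2 did not pass the test. Ccne1 (7:38097984-38107534, minus strand) had 5.89, 5.18 and 5.54 log2 RPM in MEFs. F KSR2 had 7.83, 7.79 and 7.14, F KSR4 7.54, 6.0 and 7.62, M KSR3 7.94, 8.08 and 8.02, M KSR5 7.94, 8.53 and 8.13, and TX 2i ESCs 7.64, 7.36 and 7.53. All 15 libraries exceeded the MEFs, F KSR4 replicate 2 by the least. The difference was 2.14 (SE 0.25, 4.4-fold, adjusted p = 6.3e-07), and every group was called, from 1.52 in F KSR4 to 2.66 in M KSR5. Without replicate 2, the F KSR4 difference was 2.04 (SE 0.23, adjusted p = 7.9e-07), above that of TX 2i ESCs at 1.97.

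Ccne2 (4:11191351-11204779, plus strand) stood at 5.08, 4.51 and 4.49 log2 RPM in MEFs and from 3.12 to 5.50 in the pluripotent libraries, with 4 above and 6 below all MEFs. The difference was -0.03 (SE 0.31, adjusted p = 0.939), and no group was called. Per kb of exon, Ccne1 made up 73.4% ± 2.55 of the E cyclins in MEFs (SD, n = 3) and 82.7 to 95.1% in the pluripotent libraries.

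Each pluripotent group was also set against the MEFs on its own. Of the 50 pairs of gene and group, 38 were called, 15 higher and 23 lower: 8 of 10 genes in F KSR2, F KSR4 and M KSR3, and 7 of 10 in M KSR5 and TX 2i ESCs. Over all genes, 67.0% were called for F KSR2, 65.8% for F KSR4, 67.6% for M KSR3, 67.9% for M KSR5 and 66.5% for TX 2i ESCs. These comparisons share the 3 MEF libraries.

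**Figure D3:**
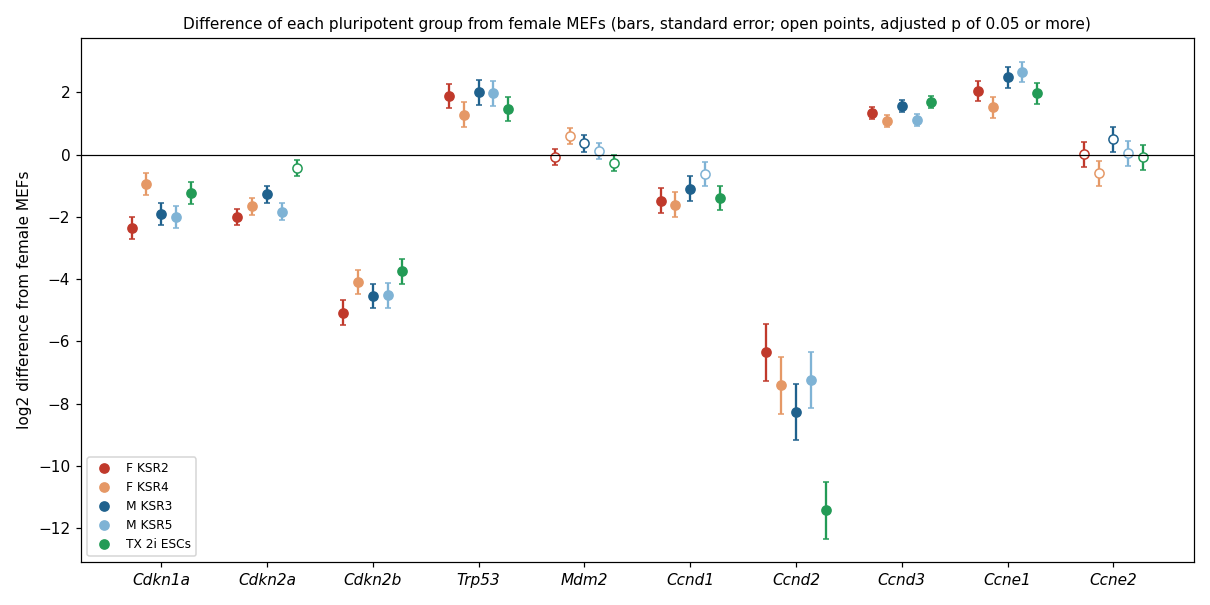
Difference of each pluripotent group from female MEFs for the 10 genes, on the log2 scale; bars are standard errors, filled points passed an adjusted p of 0.05 and open points did not. Open points are those of Mdm2 and Ccne2 in all groups, Cdkn2a in TX 2i ESCs and Ccnd1 in M KSR5.

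A scaling by the median of ratios, in place of the library total, moved the median of all genes in the MEF comparison by 0.18, from 0.21 to 0.03. Taken relative to the median of all genes, the rises were 1.51 for Trp53, 1.15 for Ccnd3 and 1.92 for Ccne1, and Cdkn1a stood at -1.89. The sign of Mdm2 turned under that scaling, to -0.04, and no call among the 10 changed.

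The 12 KSR-iPSC libraries were next compared with the 3 of TX 2i ESCs. Cdkn2a and Ccnd3 were lower and Ccnd2 was higher in KSR-iPSCs, 3 of 10 genes, beside 23.0% of all 14632 genes (1615 higher and 1757 lower). Cdkn2a differed by -1.27 (SE 0.21, 2.4-fold, adjusted p = 4.1e-04), with all 12 KSR libraries, at most 4.40, below the TX 2i ESC minimum of 4.86. Ccnd2 differed by 4.10 (SE 0.72, adjusted p = 5.6e-04), with all 12 above; it rests on 0 to 10 reads in the TX 2i ESC libraries. The difference was 2.97 without TX 2i ESC replicate 2, the library without reads (adjusted p = 0.00871), and 1.98 with 1 added to each RPM (adjusted p = 0.0032), and no single library's removal ended the call.

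Ccnd3 differed by only -0.42 (SE 0.15, adjusted p = 0.0476), with 9 of 12 KSR libraries below TX 2i ESCs, and the call was lost without any of 10 single libraries (MEF replicate 3, F KSR2 replicates 2 and 3, all 3 of M KSR3, M KSR5 replicates 1 and 2 and TX 2i ESC replicates 1 and 2), with adjusted p of 0.0502 to 0.204. Cdkn2b (-0.80, SE 0.31, adjusted p = 0.0728) and Mdm2 (0.52, SE 0.21, adjusted p = 0.0797) came close without passing; the first had 11 of 12 libraries below and the second 9 of 12 above. Cdkn2b passed without F KSR2 replicate 3 (adjusted p = 0.041) or F KSR4 replicate 3 (0.0337), and Mdm2 without MEF replicate 1 (0.0456) or F KSR4 replicate 3 (0.04). Trp53 differed by 0.33 (SE 0.31, adjusted p = 0.489) and, without F KSR4 replicate 2, by 0.51 with a call (adjusted p = 0.0102). Cdkn1a (-0.56), Ccnd1 (0.19), Ccne1 (0.20) and Ccne2 (0.06) did not pass.

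Between female and male KSR-iPSCs, 6 libraries each, none of the 10 genes was called by limma, beside 2.87% of 13609 genes. Of the 10, 2 had an unadjusted p under 0.05, and limma-voom on the recovered reads called 0. The libraries of a sex are cultures of only 2 lines (F KSR2 and F KSR4, or M KSR3 and M KSR5). The p-values count libraries, not lines, as replicates. With line as a random effect, 138 of all genes were called, against 390. Among the 10 genes, Ccne1 came nearest, at 7.32 ± 0.69 in the female and 8.11 ± 0.22 log2 RPM in the male lines (SD, n = 6 libraries). The difference was -0.78 (SE 0.26, adjusted p = 0.11), with all 6 female libraries below all male ones. Without F KSR4 replicate 2 it was -0.52 (SE 0.15, adjusted p = 0.0733). Ccnd1 differed by -0.68 (SE 0.30, adjusted p = 0.23). Trp53 differed by -0.40 (SE 0.29, adjusted p = 0.491), or by -0.06 (adjusted p = 0.815) without that library, and its male libraries spanned 9.15 to 9.25, the narrowest range of the 10 genes in either sex.

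Within the female lines, 0 of 10 genes were called between F KSR2 and F KSR4, beside 1.14% of all genes; 3 had an unadjusted p under 0.05 and limma-voom called 0. Cdkn1a was nearest, lower in F KSR2 at 6.22 than in F KSR4 at 7.64, with all 3 libraries below all 3: -1.42 (SE 0.35, adjusted p = 0.0552). It passed without F KSR2 replicate 2 (adjusted p = 0.0492), F KSR4 replicate 1 (0.012), M KSR5 replicate 3 (0.0401) or TX 2i ESC replicate 2 (0.0444), while without F KSR4 replicate 2 it was -1.25 (0.102). It also passed at -1.55 under the median-of-ratios scaling (0.0384), which moved the median of all genes here by 0.12. Mdm2 differed by -0.66 (SE 0.26, adjusted p = 0.21), again without overlap, and Cdkn2b by -0.98 (SE 0.39, adjusted p = 0.219) with overlap.

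Within the male lines, 0 of 10 genes were called, beside 4.48% of all genes; 1 had an unadjusted p under 0.05, and limma-voom called 0 between M KSR3 and M KSR5. That gene was Ccnd3, higher in M KSR3 by 0.45 (SE 0.19, adjusted p = 0.189) with all 3 libraries above all 3. Cdkn2a, at 4.09, 4.40 and 4.13 in M KSR3 and 3.44, 3.46 and 4.05 in M KSR5, differed by 0.56 (SE 0.27, adjusted p = 0.282). Ccne2 differed by 0.45 (SE 0.40, adjusted p = 0.634). Neither of these 2 overlapped between the lines.

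Ordered by group mean, most neighbours overlapped in range. For Cdkn2a the order was MEFs (5.48), TX 2i ESCs (5.05), M KSR3 (4.21), F KSR4 (3.82), M KSR5 (3.65) and F KSR2 (3.48), and only TX 2i ESCs and M KSR3 were apart. Cdkn1a ran from MEFs (8.57) through F KSR4 (7.64), TX 2i ESCs (7.33), M KSR3 (6.67) and M KSR5 (6.57) to F KSR2 (6.22), apart after MEFs and after TX 2i ESCs. Trp53 ran from M KSR3 (9.22) through M KSR5 (9.19), F KSR2 (9.10), TX 2i ESCs (8.68) and F KSR4 (8.51) to MEFs (7.22), with every neighbour overlapping; without replicate 2, F KSR4 had a mean of 9.22, level with M KSR3, and its lowest library, at 9.08, was above all MEFs. Ccnd2 ran from MEFs (9.29) through F KSR2 (2.94), M KSR5 (2.06), F KSR4 (1.88) and M KSR3 (1.02) to TX 2i ESCs (-2.13), apart at both ends.

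Likeness over the 15 pluripotent libraries was described by Pearson's r among 9014 genes above a log2 level of 2 in all of them; these libraries share lines, depth and F KSR4 replicate 2, and no test is attached. Mdm2 was most like Ccng1 (r = 0.90) and Plk2 (r = 0.90), which are also on the list of p53 targets, followed by 4632434I11Rik (r = 0.89), and these were 0.93, 0.88 and 0.91 without F KSR4 replicate 2. Trp53 was most like Fbxw7, Ankrd49 and Psmc4, at r of 0.96, 0.96 and 0.95, which dropped to 0.82, 0.79 and 0.80 without that library. Cdkn1a was most like Ndufa13 (r = 0.92), Cdkn2a like Nubp1 (r = 0.95), Ccnd1 like Kdm2b (r = 0.85), Ccnd3 like Tns1 (r = 0.92), Ccne1 like Wbscr22 (r = 0.95) and Ccne2 like Zc3h15 and Prkrir (r = 0.93 for both).

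The F1 cross allows reads over strain variants to be given to the maternal (BL6) or the paternal (CAST) allele, which 17.7 to 19.9% of reads were. Across the 10 genes and 6 groups, 59 of 60 pairs had a library with at least 5 allelic reads, and in 15 the mean maternal share lay over 10 percentage points from that of the rest of its chromosome. Of the 15, 6 were Cdkn2b, which had few reads in pluripotent libraries. The genes within 5 Mb of Cdkn2b were also below the chromosome. Cdkn2b and these neighbours stood at 39.4 and 39.1% maternal in MEFs, 33.7 and 34.9% in F KSR4, and 36.4 and 36.6% in M KSR3. In M KSR5 they stood at 35.6 and 37.1%, in TX 2i ESCs at 15.8 and 20.7%, and in F KSR2 at 19.4 and 35.9%. The share of all genes that lie so far from their chromosome was not counted, so the 15 cannot be called many or few. Those described here, and the limit of 10 points, were picked after the values were seen, and there is no test.

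In TX 2i ESCs, Ccnd1 came mainly from the paternal allele. The maternal share was 28.6% (Wilson 95% interval 24.5 to 33.1), 30.5% (25.5 to 36.0) and 25.5% (20.6 to 31.1) in the 3 libraries, from 423, 292 and 259 allelic reads. The rest of chromosome 7 stood at 51.3% maternal and the 165 genes within 5 Mb at 49.1%. In MEFs the share was 48.5% ± 2.74, and the other pluripotent groups had 41.5 to 49.0%; F KSR2 replicate 1 was the lowest of their libraries, at 34.7% (31.0 to 38.6).

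Cdkn2a and Cdkn2b were also mainly paternal in TX 2i ESCs, at 29.4% ± 7.95 and 15.8% ± 10.4 maternal (SD, n = 3). Here the whole of chromosome 4 was uneven, at 32.4% maternal, and the 75 genes within 5 Mb of Cdkn2a stood at 20.5%. In MEFs, Cdkn2a was 58.8% ± 7.13 and Cdkn2b 39.4% ± 2.34 maternal on a chromosome of 52.7%. The genes within 5 Mb stood at 39.1% around Cdkn2b and 38.3% around Cdkn2a there, so Cdkn2b was near its neighbours and Cdkn2a above them; the 3 Cdkn2a libraries ran from 50.5 to 63.2%.

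In F KSR2, all 56 allelic reads of Ccnd2 were maternal, 32, 13 and 11 in the 3 libraries, on a chromosome 6 that was 96.8% maternal. In M KSR5 replicate 3, whose Ccnd2 level was the highest, 31 of 43 allelic reads were maternal (72.1%, Wilson 95% interval 57.3 to 83.3), and the 15 fibroblast markers there stood at 54.5% (50.7 to 58.3), against 25.5% and 28.7% in the other 2 M KSR5 libraries. Trp53 was 57.3% ± 0.57 maternal in M KSR3. There the rest of chromosome 11 stood at 61.7% and the 252 genes within 5 Mb of Trp53 at 67.7%. In the other groups Trp53 was 45.0 to 51.1% maternal. The rest of the chromosome stood at 50.7 to 51.7% in those groups, and the genes within 5 Mb at 51.0 to 52.0%. Intervals on shares cover counting error only.

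**Figure D4:**
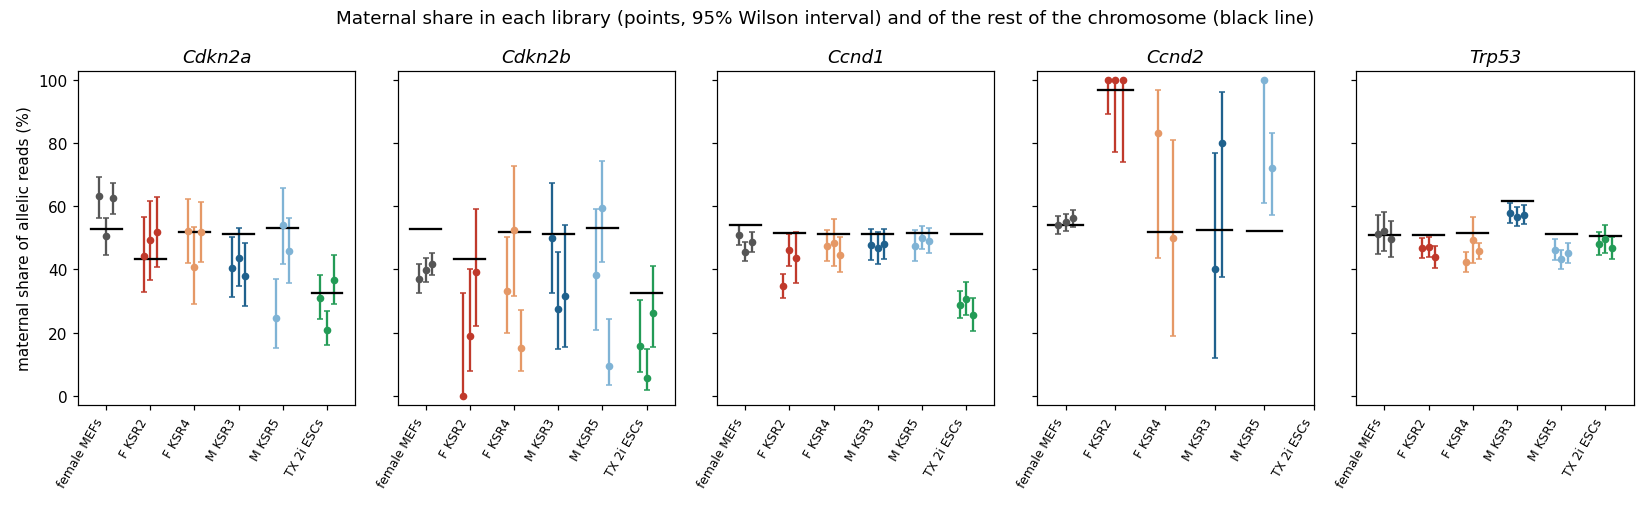
Maternal share of allelic reads, in percent, of Cdkn2a, Cdkn2b, Ccnd1, Ccnd2 and Trp53 in each library with at least 5 allelic reads (points with 95% Wilson intervals), with the share of the rest of the chromosome as black lines. The 3 TX 2i ESC points of Ccnd1 lie between 25.5 and 30.5%, below a chromosome line at 51.3%, and the F KSR2 points of Ccnd2 lie at 100%.

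The wider pathway was described with 7 lists of genes. Against MEFs, 13 of 15 replication and proliferation genes rose and none fell, with a median of 2.08 on the log2 scale beside 0.21 over all genes. The share called was 86.7%, beside 74.6% of all genes (42.1% higher and 32.5% lower). Cdt1, which licenses origins, rose by 3.27 (SE 0.14, adjusted p = 8.5e-13) and Mcm5, a helicase subunit, by 2.81 (SE 0.16, adjusted p = 7.2e-11); Rrm1 and Tyms did not pass. Of 11 CDKs, other cyclins and Cdc25 phosphatases, 8 rose and none fell (median 1.06), led by Ccnb1 at 2.24 (SE 0.17) and Ccnb2 at 1.88 (SE 0.18), the mitotic cyclins. That made 72.7% called, close to the 74.6% of all genes, of which 42.1% were higher. Cdk4, the partner of the D cyclins, did not pass (0.42, SE 0.21, adjusted p = 0.0844), and Cdk6 rose by 0.92 (SE 0.25, adjusted p = 0.00307).

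Of the 4 other CDK inhibitors, 3 fell and none rose (median -2.21). The share called was 75%, close to the 74.6% of all genes, and 32.5% of all genes fell. Cdkn2c (p18) differed by -3.57 (SE 0.47, adjusted p = 2.5e-06), Cdkn1c (p57), which is imprinted, by -3.20 (SE 0.34, adjusted p = 1.4e-07), and Cdkn1b (p27) by -1.21 (SE 0.34, adjusted p = 0.004). Cdkn2d (p19 of the INK4 family) did not pass. In the RB and E2F family (median 0.41), 5 of 11 rose, with E2f2 at 3.84 (SE 0.25) and E2f4 at 1.72 (SE 0.17), and 2 fell, Rbl2 (p130) at -1.18 (SE 0.33) and E2f6 at -0.82 (SE 0.15). That made 63.6% called, below the 74.6% of all genes, and 5 of 11 is close to the 42.1% of all genes that rose.

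All 8 tested genes of the list of p53 regulators and relatives rose, with a median of 1.77, beside 42.1% of all genes that rose. Chek1, the replication checkpoint kinase, rose by 2.77 (SE 0.12, adjusted p = 9.3e-13). Trp73, a relative of Trp53, had no read in any MEF library and 182 to 778 reads in the pluripotent libraries, at least 171-fold higher against a floor of 3 reads per library. Mdm4, Usp7, Ppm1d, Atm, Atr and Chek2 rose by 1.08 to 2.18. Trp63 did not pass the filter.

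Of 17 p53 targets other than Cdkn1a and Mdm2, 6 rose, 5 fell and 6 did not pass (median 0.29), so 64.7% were called, beside 74.6% of all genes. Pmaip1 (NOXA) rose by 1.35 (SE 0.29, adjusted p = 4.6e-04) and Gadd45a by 1.21 (SE 0.16, adjusted p = 1.9e-06). The largest falls were those of the death receptor Fas, at -3.77 (SE 0.41, adjusted p = 2.5e-07), and of Plk2, at -2.45 (SE 0.34, adjusted p = 4.0e-06). Ccng1 and Phlda3 also fell in all 15 libraries, while Bax (0.44) and Zmat3 (-0.17) did not pass.

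Of the 12 senescence-associated genes, 10 fell, and these are mostly secreted proteins that fibroblasts also make. The share called was 91.7%, beside 74.6% of all genes, and 32.5% of all genes fell. Ccl2 differed by -9.35 (SE 0.92) and Igfbp7 by -8.99 (SE 1.03). Ccl2 had no read in any TX 2i ESC library and 0 to 38 reads in the KSR-iPSC libraries, so its size rests on few reads. The list's median was -7.02, or -6.0 with Cxcl1 and Mmp3, which had no read in any pluripotent library, set at their bounds. Lmnb1, the lamin lost in senescent cells, was the only one to rise, by 2.33 (SE 0.21, adjusted p = 2.0e-08), and Glb1, the source of senescence-associated beta-galactosidase activity, did not pass (0.25, SE 0.13). The 15 fibroblast markers fell with this list, at 0.0352 to 0.694% of their MEF level at the median, and the part of cell type in its change was not tested.

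**Figure D5:**
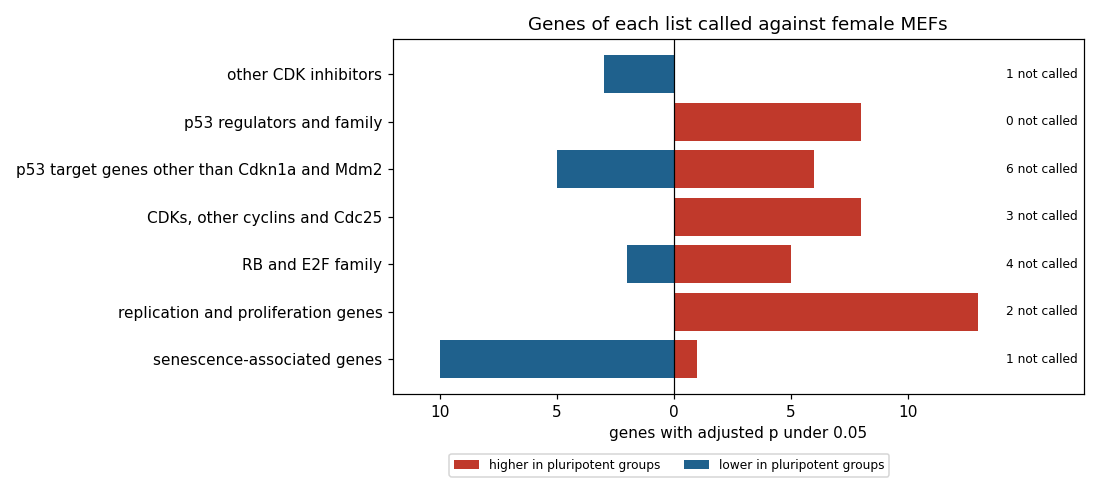
Number of genes of each of the 7 lists that passed an adjusted p of 0.05 against female MEFs, higher in the pluripotent groups to the right of 0 and lower to the left, with the number not called at the margin. Replication genes reach 13 to the right and senescence-associated genes 10 to the left, while p53 targets stand at 6 and 5.

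Set against TX 2i ESCs, 16 of the 78 list genes tested were called in KSR-iPSCs, or 20.5%, close to the 23.0% of all genes. The calls of Cdkn1c, Trp73, Perp, Gadd45a, Mcm4 and Cxcl12 held under each of 25 alternatives. Of the other CDK inhibitors, Cdkn1c was higher in KSR-iPSCs by 2.69 (SE 0.34, adjusted p = 3.7e-05), in all 12 libraries, and Cdkn2c was lower, at -1.99 (SE 0.48, adjusted p = 0.00627), as was Cdkn2d, at -0.64 (SE 0.22, adjusted p = 0.0445). The Cdkn2c call was lost without TX 2i ESC replicate 2, and that of Cdkn2d without any of 8 single libraries (F KSR2 replicate 1, M KSR3 replicates 1 and 2, all 3 of M KSR5 and TX 2i ESC replicates 2 and 3), with no filter and with the replicate block (adjusted p up to 0.24). Of the 17 p53 targets, 3 were higher and none lower, namely Perp by 1.80 (SE 0.37), Gadd45a by 1.75 (SE 0.16) and Plk2 by 1.12 (SE 0.34). Trp73 was higher by 1.41 (SE 0.23) and Usp7 lower, at -0.53 (SE 0.14). Rb1 (0.74, SE 0.21) and E2f7 (0.72, SE 0.25) were higher and Rbl1 (p107) lower, at -0.84 (SE 0.25). Leaving out a TX 2i ESC library ended several of these calls. It also cut the calls over all genes, from 3372 to 2154, 2125 and 2126 without replicates 1, 2 and 3. The call of Rb1 was lost without replicate 1 or 2 (adjusted p up to 0.204 over all alternatives). Those of Rbl1 (up to 0.137) and E2f7 (up to 0.154) were lost without any 1 of the 3. Those of Usp7 (up to 0.103) and Plk2 (up to 0.216) were lost without replicate 1 or 3. E2f7 also lost its call without F KSR2 replicate 2, M KSR3 replicates 1 or 2 or M KSR5 replicates 1 or 2, with no filter and by limma-voom, and Plk2 with no filter.

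Of the replication genes, Mcm4 at -0.88 (SE 0.15, adjusted p = 4.5e-04) and Mcm5 at -0.53 (SE 0.17, adjusted p = 0.0294) were lower in KSR-iPSCs, and the other 13 did not pass. The Mcm5 call was lost without any 1 of the 3 TX 2i ESC libraries and with no filter (adjusted p up to 0.143). None of the 11 CDKs, other cyclins and Cdc25 phosphatases was called. Of the senescence-associated genes, Cxcl12 was higher by 4.59 (SE 0.60) and Igfbp5 (-1.65, SE 0.56) and Timp1 (-0.85, SE 0.26) were lower. The size for Cxcl12 rests on few reads: its TX 2i ESC mean was -3.23 log2 RPM (SD 1.57), where 1 read stands at -4.22 to -3.97. The Timp1 call was lost without any 1 of the 3 TX 2i ESC libraries (adjusted p up to 0.0893), and that of Igfbp5 without TX 2i ESC replicates 1 or 2, F KSR2 replicate 1, F KSR4 replicate 1, M KSR3 replicate 3 or M KSR5 replicates 1 or 2, with no filter and in the fit of the compared groups (adjusted p up to 0.206). Medians of the 7 lists lay between -0.61 and 0.20, beside -0.00 over all genes.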

How the data were processed

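RNA-seq libraries of 6 groups (3 each) were analysed; 82 bisulfite amplicon samples of the series were not used here. The authors trimmed with Trim Galore 0.6.1, aligned with HISAT2 2.1.0 to GRCm38, assigned reads over strain variants to a parental genome and quantified genes strand-specifically in SeqMonk; the deposited log2 values are log2 RPM without length correction, and a gene without reads is held at 0.9 read. Whole reads were recovered for 99.97 to 100% of values within 0.05 read. The labels and the methods of the study differ on read length and pairing.

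All 18 libraries were fitted with limma 3.58.1 in R 4.3.3 (group means, trended variance, Benjamini-Hochberg adjustment over all genes, threshold 0.05) after keeping genes above a log2 value of 0 in at least 3 libraries; female and male lines were compared in a fit of their 12 libraries. The scripts were tested on simulated data. Levels per length used the union of coding-transcript exons in GENCODE vM21. Alleles needed 5 reads per library. Alternatives were log2(RPM + 1), median-of-ratios scaling, other filters, limma-voom on the recovered reads, a replicate block, other fits and leaving out each library. Replicates are called biological by the labels, but MEFs came from a single embryo and each line is a clone, so p-values measure the spread between these cultures. Replicate numbers were not taken to pair the libraries: 13 of 45 correlations between same-numbered libraries were above 0.1 (median 0.0393), and in none of the 5 comparisons were all of them.

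The 10 genes, the gene lists and the tests were chosen with earlier results of these data known. Named by rule were the 10 genes and, per list, the 2 largest rises and falls past the threshold and genes against the list's direction; the other list genes were named after their values were seen. Promoter windows are RefSeq's, GRCm38.p6. The smallest exact p that 3 against 3 libraries allow is 0.1, so no permutation test of single genes was made.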

Additional observations from a re-analysis of the deposited data

Results flagged for a closer look

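Examined were 20 sets of 6 libraries (10 genes in the female and in the male KSR-iPSCs). Of these, 2 held a library far from the other 5 by Dixon's test. Chance gives about 1 in 20 for independent draws from a single normal population. Each set held cultures of 2 lines, and the genes were read in the same libraries, so that rate need not hold here. Trp53 stood at 7.07 log2 RPM in F KSR4 replicate 2, with a gap of 0.842 of the whole range to the next of the female libraries. Ccne1 stood at 8.53 log2 RPM in M KSR5 replicate 2, with a gap of 0.675 of the range to the next of the male libraries.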

How the results depend on the processing

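Of 1189 values of single genes under the alternatives, 1133 kept their direction and side of the threshold, 26 reversed, 17 gained and 13 lost a call. The cause was not tested for any of them. In the MEF comparison 8 of the 10 genes were called under each alternative, and a fit with only the groups compared is the same fit there. Between female and male lines, a fit of all 18 libraries called 1 of the 10 genes (Ccne1, adjusted p = 0.0379) and 1523 genes in all, against 390; no filter gave 232 and line as a random effect 138. Between F KSR2 and F KSR4, 1 of the 10 genes (Cdkn1a) was called with 1 added to each RPM (adjusted p = 0.0464), median-of-ratios scaling (0.0384), a log2 filter of 2 (0.0498) and the replicate block (0.00933); the block called 282 genes in all, against 167, and a fit of those 6 libraries called 1. Between M KSR3 and M KSR5, the fit of the compared groups called 1 of the 10 genes (Ccnd3, adjusted p = 0.0476) and 1851 genes, against 656.

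Median-of-ratios scaling reversed Mdm2 against MEFs (-0.04), Cdkn2b between the sexes (0.04) and Trp53 between the male lines (-0.00), none of which was called. The Ccnd3 call between KSR-iPSCs and TX 2i ESCs was lost with that scaling (adjusted p = 0.0878), without a filter (0.0941) and with the replicate block (0.0529), and the block called Cdkn1a (0.0466) and Cdkn2b (0.0471) there. Replicate numbers are shared only as numbers: 9 of 18 libraries correlated best with their own number, and the block changed no other call among the 10 genes in the 5 comparisons.

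Leaving out each library in turn gave 8 to 8 of the 10 genes and 9423 to 11322 genes in all against MEFs, 2 to 5 and 2125 to 4317 for KSR-iPSCs against TX 2i ESCs, 0 to 0 and 187 to 521 between the sexes, 0 to 1 and 66 to 1660 (without F KSR4 replicate 1) between the female lines, and 0 to 0 and 145 to 1182 (without F KSR4 replicate 2) between the male lines. Over each group against MEFs it gave 37 to 39 pairs, and 14 to 16 allelic pairs far from their chromosome, with 14 at a minimum of 20 reads. Uncalled differences changed sign in these fits: Mdm2 (-0.14 to 0.31) and Ccne2 (-0.13 to 0.17) against MEFs, Ccne2 against TX 2i ESCs (-0.12 to 0.20), Cdkn2b (-0.28 to 0.24) and Mdm2 (-0.09 to 0.16) between the sexes, Trp53 (-0.12 to 1.02) and Ccnd1 (-0.36 to 0.72) between the female lines, and Cdkn1a (-0.10 to 0.43), Cdkn2b (-0.14 to 0.10) and Ccnd2 (-2.11 to 0.01) between the male lines. Depth limits Ccnd2 in TX 2i ESCs, at 17 reads, and the allelic shares of Cdkn2b.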
